A study of Arabidopsis thaliana with 12 samples.

Results

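MICU (AT4G32060) and MIC60 (AT4G39690) are the Arabidopsis genes for a regulator of mitochondrial calcium uptake and for a protein that shapes the mitochondrial inner membrane. The members were the probes whose platform annotation lists exactly 1 gene, that gene being MICU or MIC60. There are 2 such probes, 1 for each gene, among 692 probes with 1 gene and 3439 probes in all, and 0 probes with several genes list either of them. Both genes were picked because they were higher in psad1 in the same values that are described here, so the difference between genotypes is given as a description and carries no test.

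Total RNA was measured on an array in 6 samples of the psad1 mutant and 6 wild-type (WT) samples of *Arabidopsis thaliana*, both of the ecotype Columbia 0. In psad1 the photosystem I protein PSI-D1 is missing, 1 form of the subunit that offers ferredoxin a docking place on the stromal side of the thylakoid. The labels name no further allele or agent in either group, and give neither tissue, plant age and growth conditions nor the number of plants per sample. In bulk RNA, more cells that hold a transcript and more transcript per cell cannot be told apart.

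Mitochondria take up calcium through a channel of the inner membrane, the mitochondrial calcium uniporter, whose pore is formed by MCU proteins. MICU is a calcium-binding protein with EF hands that regulates this uptake, and in Arabidopsis it is known for restraining it. MIC60 is a core subunit of MICOS, the complex that holds the narrow junctions where cristae, the folds that carry the respiratory chain, open to the space between the membranes. In plants MIC60 is also known for a part in moving lipids between mitochondrial membranes. Both proteins are encoded in the nucleus and act in mitochondria, while the protein missing in psad1 acts in the chloroplast.

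The mean intensity of a sample was 1.05 to 1.07 and its median 0.554 to 0.623. In each genotype the samples numbered 1 and 2 behaved as repeats, as did 3 with 4 and 5 with 6. Over all probes the deviations of such repeats from the genotype mean had an r of 0.469 to 0.649, whereas other sample pairs of a genotype had −0.609 to −0.111. Deviations from a shared mean cancel out, so the negative values come in part from the centring. The repeats were found in these values and are not named in the labels. Such a pair is called a set, and means ± SD are over the 3 set averages of a genotype. Whether sets were separate plants is not stated, so the spread between them may be technical. Precision is limited by the number of samples. Of 3 green and 9 non-green tissue marker genes, 0 had a probe with 1 gene, so the tissue was not checked against markers.

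MICU, the calcium uptake regulator, had intensities of 3.12, 3.10, 2.85, 3.02, 3.06 and 2.74 in psad1 samples 1 to 6. In WT samples 1 to 6 it had 2.19, 2.08, 2.14, 2.03, 2.16 and 2.05. The groups did not overlap, and the lowest psad1 sample, number 6, was still 1.25 times the highest WT sample. MICU averaged 2.98 ± 0.114 in psad1 and 2.11 ± 0.0264 in WT (SD, n = 3 sets each). This is a log2 difference, psad1 minus WT, of 0.50 with a standard error (SE) of 0.03 over set averages, or 1.41-fold. The WT samples lay closest together, within 2.03 to 2.19.

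MIC60, the cristae junction protein, had intensities of 2.97, 2.79, 2.74, 2.98, 2.30 and 2.41 in psad1 samples 1 to 6. In WT samples 1 to 6 it had 2.05, 2.002, 1.80, 1.99, 1.57 and 1.70. The groups did not overlap here either, but the gap was narrower, with the lowest psad1 sample, number 5, at 1.12 times the highest WT sample. Samples 5 and 6 were the lowest of their genotype both in psad1 and in WT. MIC60 averaged 2.70 ± 0.297 in psad1 and 1.85 ± 0.1996 in WT (SD, n = 3 sets each), a log2 difference of 0.54 (SE 0.13), or 1.45-fold. The SE was wider than that of MICU although the difference was of like size. In the limma fit on set averages, where the spread of all tested probes also enters, the SE was 0.097 for MICU and 0.126 for MIC60.

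For both genes every psad1 sample was above every WT sample, which 4.22% of the 3202 tested probes also showed. As the genes were picked from this contrast, nothing is read from that count. On the scale of log2 differences MICU ranked 9 and MIC60 ranked 7 among the 640 tested probes with 1 gene, and 58 and 40 among all 3202. The median log2 difference of all tested probes was −0.02 and the 5th and 95th percentiles were −0.29 and 0.38. In every sample MICU was at least 11.2 times and MIC60 at least 9.79 times the floor. The highest intensities on the arrays reached 81.0 to 100. This floor is percentile 5 of the positive intensities of a sample and not a measured background.

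**Figure D1:**
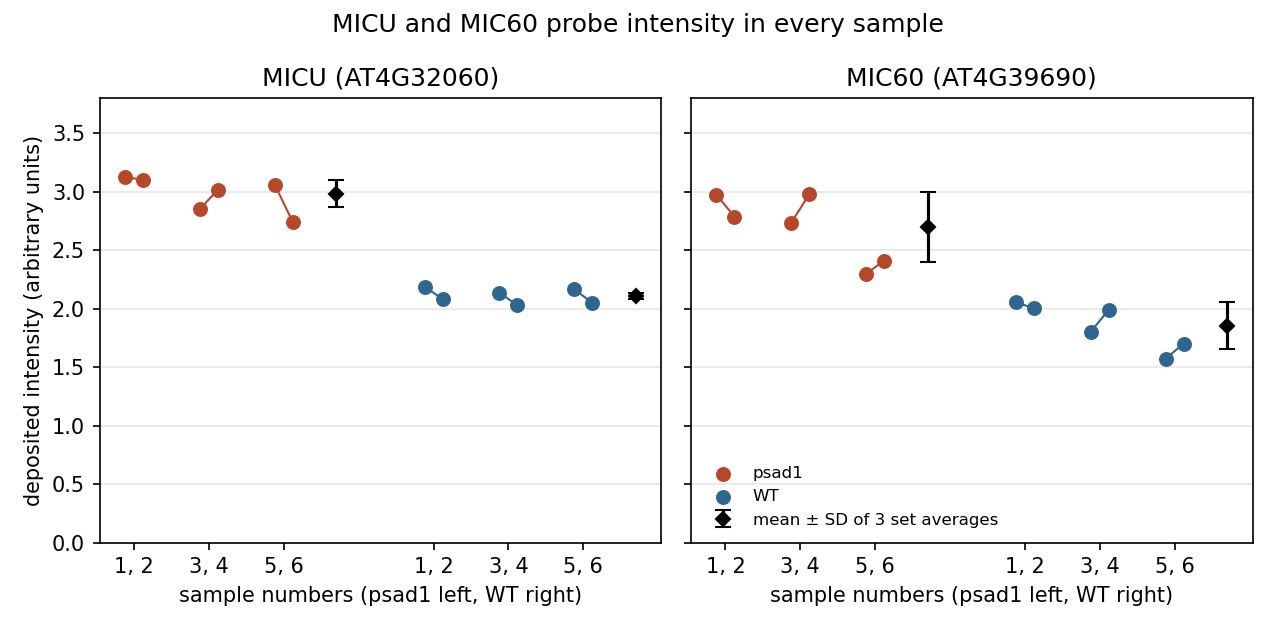
Deposited intensity (arbitrary units, linear axis from 0) of the MICU and MIC60 probes in psad1 samples (left, red) and WT samples (right, blue), with lines joining the repeats of a set and black diamonds for the mean ± SD of 3 set averages. MICU was nearly level within a genotype, from 2.74 to 3.12 in psad1 and 2.03 to 2.19 in WT, whereas MIC60 was lowest in samples 5 and 6 of both genotypes.

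**Figure D2:**
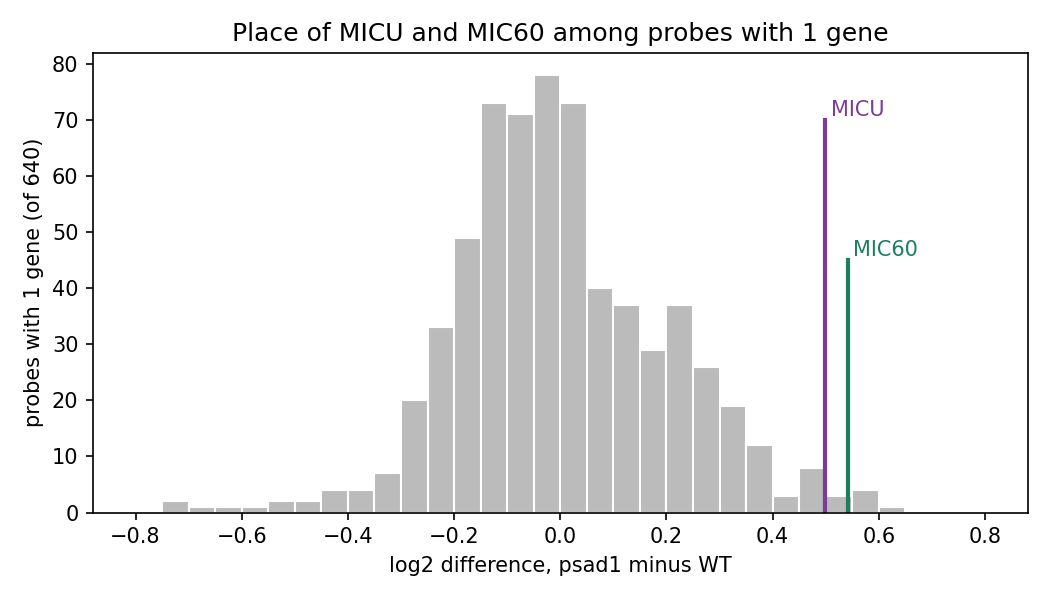
Number of probes by log2 difference, psad1 minus WT, for the 640 tested probes with 1 gene, in steps of 0.05, with lines at MICU (0.50) and MIC60 (0.54). Both lie in the upper tail, beyond the 95th percentile of these probes at 0.34, which is how they were chosen.

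Set by set, MICU measured 3.11, 2.93 and 2.90 in psad1 sets 1, 2 and 3, against 2.13, 2.08 and 2.11 in WT sets 1, 2 and 3. The log2 deviations of these averages from the genotype mean were 0.06, −0.02 and −0.04 in psad1, and 0.02, −0.02 and 0.00 in WT. No set of MICU stood away from the other sets by more than its repeats stood apart in the widest case: repeats differed by 1.01-fold to 1.12-fold, the widest being psad1 samples 5 and 6. In 5 of 6 sets the odd-numbered repeat was the higher one, the exception being psad1 samples 3 and 4.

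MIC60 measured 2.88, 2.86 and 2.35 in psad1 sets 1, 2 and 3, against 2.03, 1.90 and 1.64 in WT sets 1, 2 and 3. The log2 deviations were 0.10, 0.09 and −0.19 in psad1 and 0.14, 0.04 and −0.17 in WT. In both genotypes the set of samples 5 and 6 lay below the other sets by more than any repeats stood apart, which differed by 1.03-fold to 1.10-fold. The even-numbered repeat was higher in 4 of 6 sets, and the odd-numbered one in 2, samples 1 and 2 of psad1 and of WT.

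Most of the within-genotype variance of MIC60 lay between sets (86.7%), close to the median of all tested probes (80.9%), while for MICU it was 35.9%. The SD of set averages on the log2 scale was 0.041 for MICU and 0.162 for MIC60, against a median of 0.146 over all tested probes. The SD between repeats was 0.064 for MICU and 0.073 for MIC60, against a median of 0.080. MICU therefore differed from most probes in how close its sets were, with 1.28% of tested probes having a lower SD of set averages, and less in how close its repeats were, with 28.7% lower. For MIC60, 58.7% of tested probes had a lower SD of set averages. The closeness of MICU is a description only, and whether the way it was picked bears on it was not tested.

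**Figure D3:**
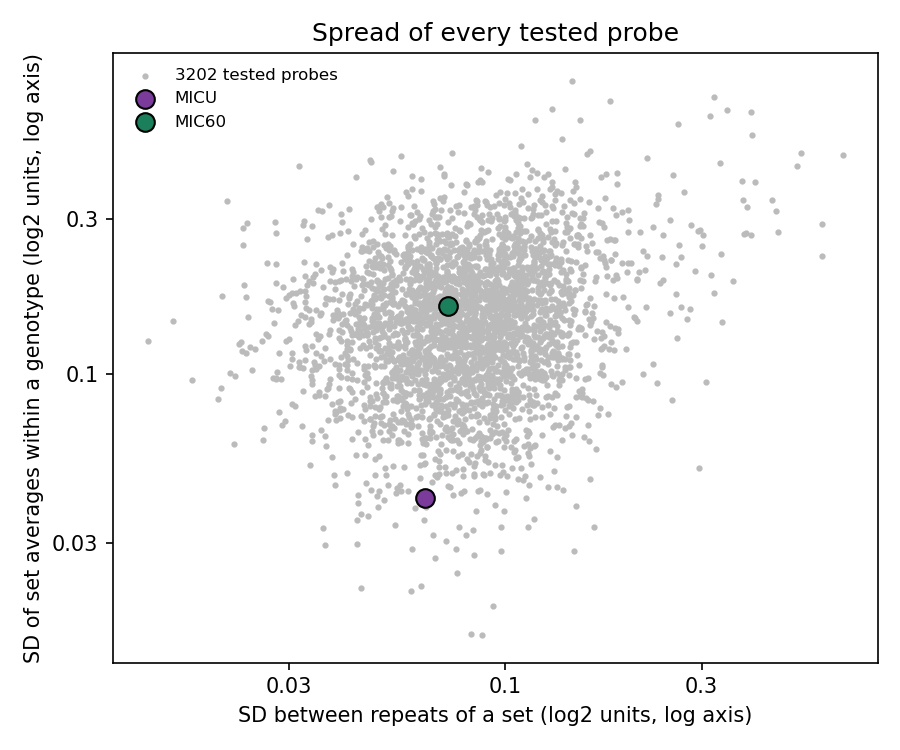
SD between repeats of a set (horizontal, log2 units, log axis) and SD of set averages within a genotype (vertical, log2 units, log axis) for 3202 tested probes in grey, with MICU in purple and MIC60 in green. MIC60 (0.073 and 0.162) sits amid the probes, and MICU (0.064 and 0.041) near their lower edge on the vertical axis.

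The sets with equal numbers of psad1 and WT deviated in the same direction in 3 of 3 cases for each gene, and samples with equal numbers did so in 5 of 6 cases for MIC60 and 3 of 6 for MICU. For MICU the deviation of WT set 3 was only −0.001, so its direction there carries little. By sample number, the log2 difference of MIC60 was 0.53, 0.48, 0.60, 0.58, 0.55 and 0.50 for numbers 1 to 6. That of MICU was 0.51, 0.58, 0.42, 0.57, 0.50 and 0.42. Taken by equal set number, the differences of MIC60 were 0.51, 0.59 and 0.53, a mean of 0.54 ± 0.05 (SD, n = 3), and those of MICU 0.54, 0.50 and 0.46, a mean of 0.50 ± 0.04 (SD, n = 3). Between equal numbers, MIC60 thus varied about as little as MICU. Nothing in the labels says that equal numbers share a batch, and across all probes not every pair of equal numbers varied together, so this pairing was not used.

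With the genotype means removed and both genotypes pooled, MICU and MIC60 varied together loosely at most. Of the 12 samples, 6 deviated in the same direction for both genes, 4 of 6 in psad1 and 2 of 6 in WT. By sample, the WT group thus showed no shared direction, and r was not taken for each genotype alone. Of the 6 sets, 4 did so, 2 of 3 in each genotype, with WT set 3 at only −0.001 for MICU. Over the 12 deviations Pearson's r was 0.20 and Spearman's rho 0.26, and over the 6 set averages r was 0.53 and rho 0.71. These are descriptions with no p, since repeats share a set, and all genes of a sample share its array and scaling. Without the 2 samples farthest from the median of MICU, psad1 samples 3 and 6, r over the remaining 10 was 0.01. Leaving out the samples most extreme in MICU narrows its range, which by itself can lower r. Without psad1 set 1 (samples 1 and 2) r was −0.0018, without psad1 set 3 it was 0.03 and without WT set 1 it was 0.13. It was higher without psad1 set 2 (0.245), WT set 2 (0.31) or WT set 3 (0.33). Between the repeats of a set, the same sample was higher for both genes in 3 of 6 sets.

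In psad1 the loose relation was clearest at its ends. In psad1 sample 1 both genes were above their mean, by 0.07 on the log2 scale for MICU and 0.15 for MIC60, and in psad1 sample 6 both were below it, at −0.12 and −0.15. Sample 5 went the other way in both genotypes: MICU deviated by 0.04 in psad1 and 0.04 in WT, while MIC60 deviated by −0.23 and −0.23. The median intensity of the whole sample also moved among psad1 samples, with 0.554 and 0.561 in samples 1 and 2, 0.596 and 0.608 in samples 3 and 4, and 0.616 and 0.623 in samples 5 and 6. In WT it was 0.589, 0.591, 0.593, 0.599, 0.583 and 0.576 in samples 1 to 6. After centring each sample on its median r over 12 samples was 0.51, and after quantile normalization it was 0.07. The part of the sample medians in the deviations of either gene was not tested further.

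**Figure D4:**
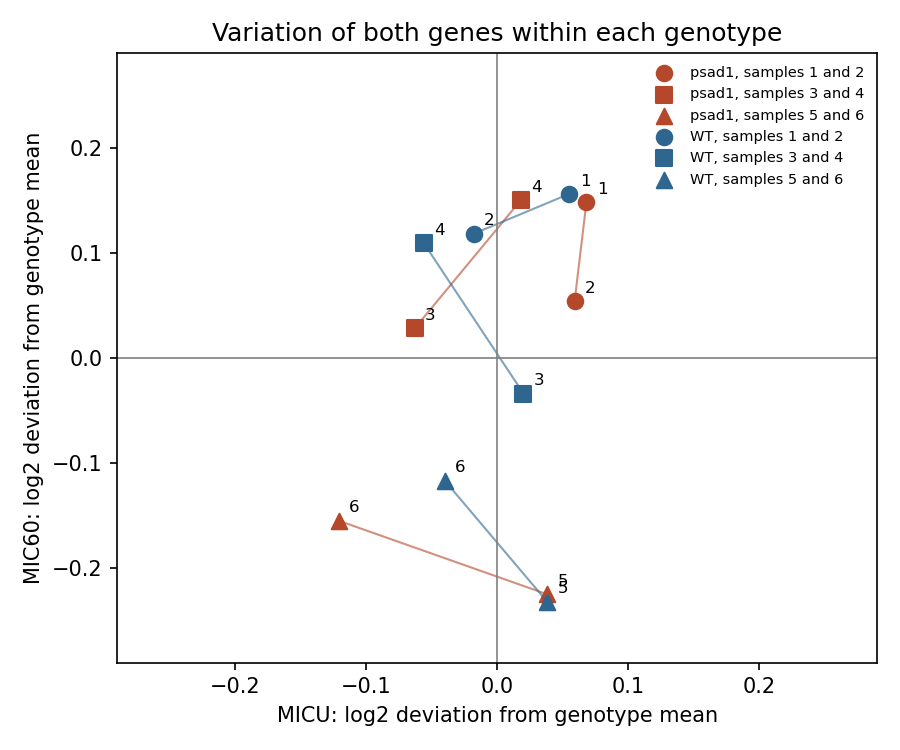
Log2 deviation of MICU (horizontal) and of MIC60 (vertical) from the mean of the sample's genotype, for 6 psad1 samples (red) and 6 WT samples (blue), with a symbol for each set, lines joining repeats and sample numbers beside the points. Samples 5 and 6 of both genotypes lie low for MIC60, down to −0.23, while MICU stays between −0.12 and 0.07.

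Among the 639 other tested probes with 1 gene, MIC60 ranked 86 in likeness to MICU and MICU ranked 160 in likeness to MIC60, where likeness is Pearson's r of the log2 deviations from the genotype means over the 12 samples. The gene most like MICU was MAMI (AT5G54110), named as membrane-associated and mannitol-induced, with r of 0.83 over the 12 samples and 0.97 over the 6 set averages. AT3G26580 (0.67), AT4G39760 (0.61), AT2G41120 (0.60) and CCL (0.59), a CCR-like gene, came next over the 12 samples. AT3G26580 also lies 12 tested probes after MICU in the probe numbering, and likeness was taken without a correction for position. The 95th percentile of r with MICU over all 639 probes was 0.41 and the 5th was −0.61.

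These 5 genes did not share the genotype difference of MICU. The log2 difference, psad1 minus WT, was −0.04 for MAMI, −0.07 for AT3G26580, −0.27 for AT4G39760, 0.21 for AT2G41120 and −0.71 for CCL, against 0.50 for MICU. MAMI measured 1.11 ± 0.0947 in psad1 and 1.14 ± 0.0571 in WT (SD, n = 3 sets each). CCL, which varied with MICU within a genotype, lay on the other side between genotypes, with 4.57 ± 0.289 in psad1 and 7.45 ± 0.387 in WT (SD, n = 3 sets each).

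The genes most like MIC60 were AT1G35510 (r = 0.87 over 12 samples), AT4G19900 (0.87), AT4G18180 (0.86), AT2G06040 (0.83) and AT3G13150 (0.81). Over the 639 probes compared, the 95th percentile of r with MIC60 was 0.63 and the 5th was −0.69. Their log2 differences were −0.42, 0.18, −0.52, 0.28 and 0.14 in the same order, against 0.54 for MIC60. AT1G35510, the most alike, measured 1.32 ± 0.132 in psad1 and 1.78 ± 0.247 in WT (SD, n = 3 sets each), so the gene most like MIC60 over the 12 samples was lower in psad1 while MIC60 was higher. No gene was among the 5 most alike for both MICU and MIC60.

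The numbering of the probes may follow their place on the array, so the probes around MICU and MIC60 in this numbering were set beside them. The tested probes directly before and after MICU, numbers 2365 and 2367, have no gene listed and log2 differences of −0.13 and −0.23, against 0.50 for MICU. The median over the 25 tested probes centred on MICU was −0.02. From 3 to 7 steps after MICU, however, a run of 5 probes with no gene listed had log2 differences of 0.29, 0.43, 0.53, 0.28 and 0.47, and 1 of the 24 neighbours, probe 2373 at 0.53, was above MICU.

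The tested probes directly before and after MIC60 had −0.15 (probe 4111, no gene listed) and −0.27 (probe 4113, listed as chr31). From 8 to 6 steps before MIC60, a run of 3 probes, 2 with no gene listed and 1 with several, had 0.35, 0.31 and 0.37. The 24 neighbours lay between −0.27 and 0.37, all below MIC60, with a median of −0.09 over the 25 probes. After subtraction of the running median over 25 neighbouring probes from each sample's deviations, the log2 difference was 0.45 for MICU and 0.59 for MIC60.

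**Figure D5:**
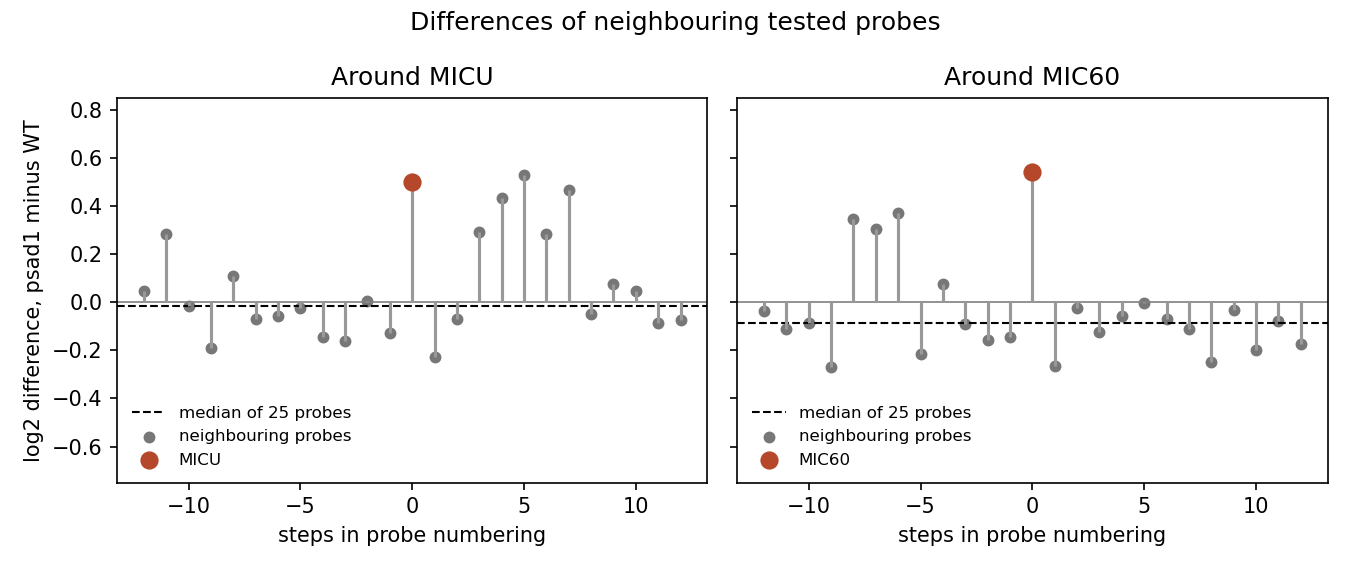
Log2 difference, psad1 minus WT, of the 25 tested probes centred on MICU (left) and on MIC60 (right), by steps in the probe numbering, with the median of the 25 as a dashed line. Probes 3 to 7 steps after MICU (0.50) reach 0.28 to 0.53, and probes 8 to 6 steps before MIC60 (0.54) reach 0.31 to 0.37.

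The listed partners of both proteins could not be followed with the probe annotation. The lists below do not hold every mitochondrial gene, and some outside them, such as ETFQO and GLDH, were measured. Lists of 9 genes of mitochondrial calcium transport (the MCU family and other transport genes), 10 of cristae and inner membrane shape (prohibitins and candidate MICOS partners), 20 of the respiratory chain and membrane carriers and 14 of matrix metabolism had 0 members on a probe with 1 gene and 0 on a probe with several. The same held for 75 genes whose name or synonym in the reference gene table holds the letters mitochondri. Of these 124 genes together, 123 were in the reference gene table, and all 124 count here as not identified, since others may lie among the 1877 probes with no gene listed.

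In their place 7 genes with a symbol that points to mitochondria or calcium were taken from the probe annotation, by symbol and without regard to their values, after the lists had come out empty. The pick was not exhaustive, since genes listed by locus number alone could not be found this way. IQD22 (log2 difference 0.025) and iqd32 (−0.001), whose symbols may also point to calcium, were not among the 7. Of these 7 genes 0 passed an adjusted p of 0.05 with limma on set averages, where 0.874% of the 3202 tested probes passed, and 0 passed on the 12 samples, where 15.8% did. At an unadjusted p under 0.05, 0 of them passed on set averages, where 14.9% of all tested probes did, and 2 on the 12 samples, where 33.3% did. The median log2 difference of these 7 genes was 0.14, against −0.02 over all tested probes, with 5 positive and 2 negative. It describes this partial pick and not mitochondrial or calcium genes at large.

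Of the 4 mitochondrial genes, ETFQO, which passes electrons from the breakdown of amino acids to ubiquinone, measured 0.654 ± 0.0489 in psad1 and 0.579 ± 0.0630 in WT (SD, n = 3 sets each), a log2 difference of 0.18 (SE 0.11). GLDH, the last enzyme of ascorbate synthesis, which sits at the inner membrane, had a log2 difference of −0.05 (SE 0.05). OSB1, a DNA-binding protein of the mitochondrial genome, had −0.02 (SE 0.09) and the glyoxalase gene GLX2-1 had 0.14 (SE 0.13). Of the 3 calcium genes, the calmodulin-like CML30 measured 1.17 ± 0.0466 in psad1 and 0.996 ± 0.151 in WT (SD, n = 3 sets each), a log2 difference of 0.23 (SE 0.13). The calmodulin-like CML41 had 0.09 (SE 0.12) and GLR2.7, a glutamate receptor-like gene, 0.26 (SE 0.15). The log2 differences of MICU and MIC60 were larger than that of each of these 7 genes, which the way they were picked makes likely.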

How the data were processed

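The authors deposited 1 value table of 3439 probes by 12 samples, 6 psad1 and 6 WT per the labels. Nothing per the labels or the file header says what the authors did to make the deposited intensities (scanner, background and scaling are unknown). The unit was taken from their range, which is linear, skewed and never negative. Each sample had a floor at percentile 5 of its positive intensities (0.152 to 0.184), to which lower values were raised before log2. A probe was tested if it exceeded this floor in any sample, which left 3202. The test was limma 3.58.1 (R 4.3.3) on set averages, with 2-sided p-values adjusted by Benjamini-Hochberg across these 3202 probes and a threshold of 0.05, and was checked on simulated data. Figures used matplotlib 3.10.9. Genes came from the platform's probe annotation. Of 692 probes with 1 gene, 690 matched the gene table of TAIR10.1. Coordinates are left out because the array's build is unknown. No promoter or protein sequence was used here.

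Members, lists and tests were chosen with earlier results of these data known. Named genes were both members, measured list genes, the 5 genes most like each member and the members' direct neighbours in the probe numbering. The other 7 genes, and the runs of probes near both members, were added after the data were seen. Equal sample numbers of both genotypes were not taken as pairs, since their deviations correlated between 0.008 and 0.483, 4 of 6 over 0.1. Alternatives were other replicate units and blocks, normalizations, floors, filters, thresholds, a position correction and leaving out samples or sets.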

Additional observations from a re-analysis of the deposited data

How the results depend on the processing

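Results below are those of the fit on set averages unless named otherwise. The log2 difference of MICU was 0.4485 after position correction and stayed within 1 SD of set averages of 0.4991 in the other 21 of 22 alternatives that can move it, with a highest value of 0.5256. That of MIC60 stayed within 1 SD of 0.5406 in 22 of 22, from 0.4534 without WT set 3 to 0.6354 without psad1 set 3. Leaving out 1 sample gave 0.4726 to 0.5256 for MICU and 0.5167 to 0.5646 for MIC60. The sign could not change there, since every psad1 sample lay above every WT sample. In this balanced design the 12 samples or a replicate block cannot move these differences (0.4991 and 0.5406), nor can the higher floor, so those 4 are not counted. Across all probes, 8 of the 12 samples correlated best with the sample of equal number, a hint from the data and not from the design.

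Within genotypes, against an r of 0.2034 over 12 samples, it was 0.529 over set averages, 0.5082 after median centring, 0.0744 after quantile normalization, −0.0018 without psad1 set 1 and 0.0328 without psad1 set 3 (−0.0018 to 0.334 over left-out sets), and the cause was not tested.

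The number of probes past the threshold, which serves only as background here, was 28 on set averages, 505 on 12 samples, 84 with sets as a random block and 761 with the sample number as a replicate block, and 27 when sets of equal number formed a replicate block. It was 46 with the floor at the percentile 10, 59 with an offset, 56 after position correction, 45 without dim probes and 12 at a threshold of 0.01. Without psad1 sets 1, 2 and 3 it was 14, 9 and 53, without WT sets 1, 2 and 3 it was 11, 14 and 17, and without 1 sample 23 to 42. Of the probes called, 53.6% were higher in psad1 on set averages, against 39.3% after median centring, 48.9% on 12 samples, 41.1% and 37% with a replicate block by sample and by set number, and 52.9% to 77.8% without 1 set. No alternative was run for the mitochondrial lists, since 0 of their genes had a probe in the annotation, and none for the 7 genes taken in their place beyond the 12 samples. MICU and MIC60 were both at 9.79 or more times the floor, which is a percentile and not a measured background. Whether background limits them was not tested. Of 46 groups of 6 values (MICU, MIC60, the genes most like them, the direct neighbours of both on the array and the other 7 genes, each in psad1 and in WT), 0 held a sample far from the rest by Dixon's ratio.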
